A study of Mus musculus with 6 samples.

Results

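The genes described here encode the enzymes that make the covalent cross-links of collagen and elastin: the 5 lysyl oxidases Lox, Loxl1, Loxl2, Loxl3 and Loxl4, and the 3 lysyl hydroxylases Plod1, Plod2 and Plod3. They were taken from the deposited counts by symbol and are 8 of 55334 gene rows. All 8 passed the filter on low counts that left 16049 tested genes. They were picked with the difference between the groups already known, so their changes are given as a description and carry no p-value. RNA was sequenced from Lewis lung carcinoma cells, a mouse lung cancer line, recovered from tumours grown in the flanks of mice. The JAG2KO group carried a guide RNA against Jag2, which encodes a membrane-bound Notch ligand, and the Scramble group a guide RNA of scrambled sequence. Cells of both groups expressed green fluorescent protein (GFP) and were sorted as GFP-positive, negative for the leukocyte marker CD45 and negative for the dead-cell dye DAPI. Each group had 3 libraries. The sources used here give neither the strain and age of the mice nor whether a cell population was a single clone. The labels do not tie each library to a mouse of its own, so the errors measure the spread between these libraries, which may be technical.

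Lysyl hydroxylases act inside the cell, in the endoplasmic reticulum, where they hydroxylate lysines of newly made procollagen chains. Plod1 mainly modifies the helical part of the chain, Plod2 the telopeptides at its ends, and the product of Plod3 also adds glucose to galactosylated hydroxylysine. Lysyl oxidases are copper enzymes that act mostly outside the cell. They oxidise lysines and hydroxylysines to aldehydes, which then react to form cross-links, and the hydroxylated telopeptide lysines left by Plod2 give the more stable kind. Lox and Loxl1 carry a propeptide that is cut off after secretion, whereas Loxl2, Loxl3 and Loxl4 carry scavenger receptor cysteine-rich domains. In solid tumours Lox, Loxl2 and Plod2 are known as genes induced by hypoxia and as enzymes that stiffen the matrix.

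The libraries held 37036772 to 42914376 counts in JAG2KO and 39448304 to 43923565 in Scramble, so 3 counts were worth 0.068 to 0.0811 CPM (counts scaled to library size, with TMM factors). The targeted gene Jag2 measured 0.514, 0.799 and 1.11 CPM in the JAG2KO libraries JagKO2, JagKO3 and JagKO4, against 1.52, 1.10 and 1.02 CPM in Scramble replicates 1, 2 and 3. The groups overlapped, and the difference on the log2 scale, -0.58 with an SE of 0.39, did not pass the threshold (edgeR adjusted p = 0.318). Of the lung epithelial markers, Nkx2-1, Sftpb and Sftpa1 had 0 counts in all 6 libraries, and the whole list summed to 285 to 339 CPM in JAG2KO and 391 to 400.1 CPM in Scramble (0 markers called higher, 2 lower). The lower sum in JAG2KO came from Krt8, at 4.13 ± 0.837 CPM in JAG2KO and 124 ± 4.60 CPM in Scramble, whereas the most abundant marker, Krt18, measured 307 ± 26.4 CPM in JAG2KO and 267.6 ± 7.86 CPM in Scramble (SD, n = 3 each) and was not called. Marker genes of other cell types were present in both groups. The sum over 14 fibroblast and pericyte markers was 1015 to 1549 CPM in JAG2KO, with JagKO2 the highest, and 892 to 1037 CPM in Scramble (6 markers called higher, 1 lower, none at 0). The sum over 13 endothelial markers was 60.9 to 81.1 CPM in JAG2KO and 37.2 to 41.6 CPM in Scramble (7 higher, 0 lower). The sum over 12 macrophage and leukocyte markers was 86.5 to 107 CPM in JAG2KO and 49.7 to 59.5 CPM in Scramble (4 higher, 0 lower, 8 not called). Much of this sum was Lyz2, at 47.8 ± 5.73 CPM in JAG2KO and 21.3 ± 2.56 CPM in Scramble (SD, n = 3 each). Cx3cr1 had the lower mean in JAG2KO, 1.11 CPM against 2.03 CPM, and was not called. The part of such cells in the results that follow was not tested. In bulk RNA, fewer cells of a type and less RNA per cell cannot be told apart.

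Among the lysyl oxidases, Loxl2 was higher in JAG2KO and Loxl3 was lower, and the other 3 had overlapping groups. Over all 8 genes, 1 was called higher and 4 lower by edgeR's quasi-likelihood test (adjusted p under 0.05). Of all tested genes 24.3% were called, 11.8% higher and 12.5% lower. The groups did not overlap for 5 of the 8 genes, and for 40.3% of all tested genes, 19.5% with higher and 20.9% with lower JAG2KO values. Since the genes were chosen on this contrast, nothing is read from these shares. The median log2 fold change of the 8 was -0.24, and that of all tested genes 0.0018.

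**Figure D1:**
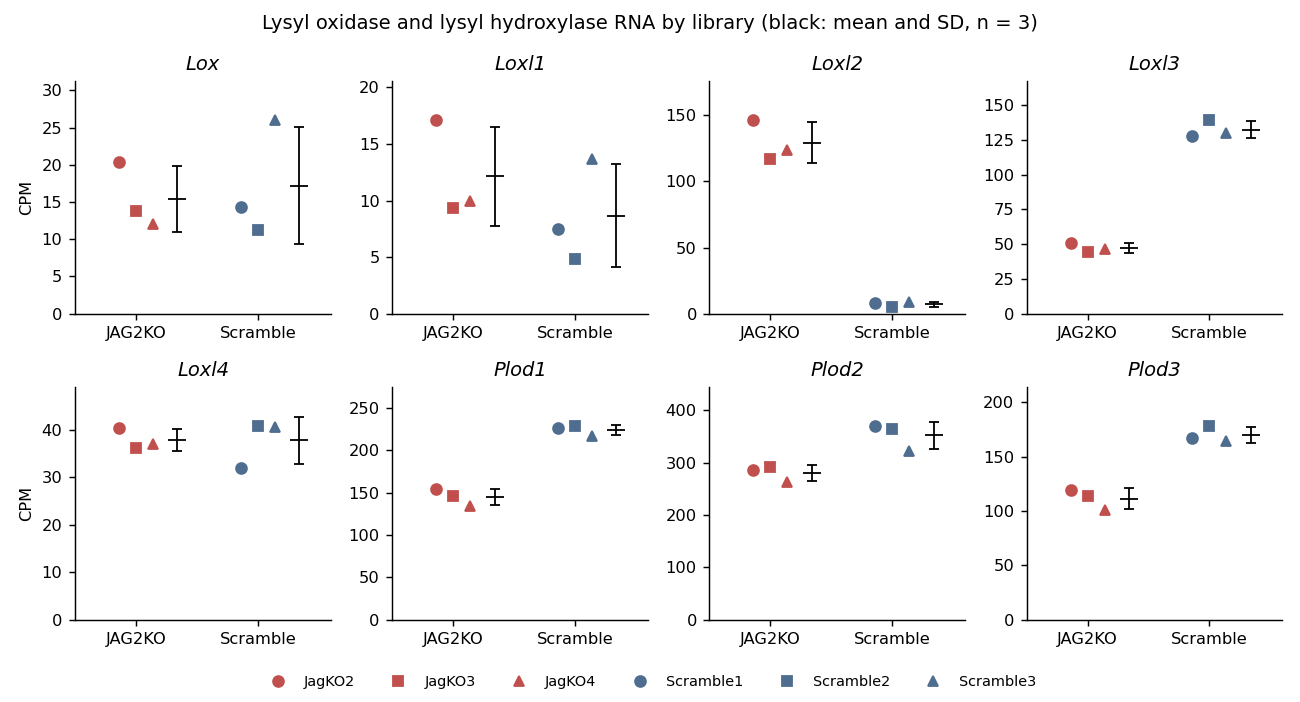
CPM of each of the 8 genes (vertical axes, each from 0) in the 3 JAG2KO libraries (red) and the 3 Scramble libraries (blue), with the mean and SD of each group in black. Loxl2 lies at 117 CPM or more in every JAG2KO library and at 8.47 CPM or less in every Scramble library, Loxl3 and all 3 Plod genes lie lower in JAG2KO, and Lox, Loxl1 and Loxl4 overlap.

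Loxl2 encodes a lysyl oxidase that oxidises collagen IV of basement membranes and is also known to act in the nucleus together with Snail. The gene (ENSMUSG00000034205.16) lies on the plus strand of chromosome 14, 69609068 to 69695834 in GRCm38. It had 5424, 4401 and 5367 counts in JagKO2, JagKO3 and JagKO4, against 350, 219 and 333 counts in Scramble replicates 1, 2 and 3. That is 146.7, 117 and 124 CPM in JAG2KO, against 7.93, 5.02 and 8.47 CPM in Scramble. Every JAG2KO library was far above every Scramble library, and JagKO2 was the highest. The means were 129 ± 15.5 CPM in JAG2KO and 7.14 ± 1.86 CPM in Scramble (SD, n = 3 each), a log2 fold change of 4.18 (SE 0.16), or 18.1-fold. By this value Loxl2 stood at place 25 from the top of all 16049 tested genes. Its log2 fold change stayed between 3.99 and 4.31 when any library was left out. An antisense model, Gm27177, shares 301 exon bases with Loxl2 and measured 0 to 0.0693 CPM in every library.

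Loxl3, which encodes a lysyl oxidase needed for palate and spine development in mice, differed in the opposite direction. The gene (ENSMUSG00000000693.10) lies on the plus strand of chromosome 6, 83034173 to 83052562. It measured 51.1, 44.2 and 46.3 CPM in JagKO2, JagKO3 and JagKO4, against 127.9, 139 and 129.7 CPM in Scramble replicates 1, 2 and 3. All 3 JAG2KO libraries were below all 3 Scramble libraries. The means were 47.2 ± 3.54 CPM in JAG2KO and 132 ± 6.23 CPM in Scramble (SD, n = 3 each), a log2 fold change of -1.49 (SE 0.073). No source used here says whether counting used strand, so reads over exons shared with an opposite-strand gene cannot be assigned. Loxl3 shares 535 exon bases with the opposite-strand protease gene Htra2, which itself fell by 0.39 on the log2 scale (SE 0.073, edgeR adjusted p = 0.00223).

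Loxl4, a further family member of the scavenger receptor type, had nearly the same mean in both groups. This gene, on the minus strand of chromosome 19, 42593982 to 42612813, measured 40.4, 36.1 and 36.9 CPM in the JAG2KO libraries, against 32.0, 40.8 and 40.5 CPM in Scramble. The JAG2KO values lay within the Scramble range, and Scramble replicate 1 was the lowest of the 6. Its log2 fold change was 0.0024 (SE 0.10).

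Lox, the founding enzyme of the family, and Loxl1, which is known for maintaining elastic fibres in mice, were the most variable. Lox, on the minus strand of chromosome 18, 52516067 to 52529867, measured 20.3, 13.8 and 12.0 CPM in JagKO2, JagKO3 and JagKO4, against 14.3, 11.2 and 26.0 CPM in Scramble replicates 1, 2 and 3. Loxl1, on the minus strand of chromosome 9, 58287738 to 58313186, measured 17.1, 9.32 and 9.93 CPM in JAG2KO, against 7.48, 4.86 and 13.7 CPM in Scramble. In both genes JagKO2 was the highest of its group and Scramble replicate 3 the highest of the other group, and Scramble replicate 2 was the lowest of all 6. The SD was 28.5% of the mean for Lox and 35.9% for Loxl1 in JAG2KO, and 45.5% and 52.2% in Scramble. For the other 6 genes it was 5.35% to 12.0% in JAG2KO and 2.71% to 26.0% in Scramble. The log2 fold change was -0.16 (SE 0.27) for Lox and 0.48 (SE 0.32) for Loxl1, and neither passed the threshold. Without Scramble replicate 3 the value of Lox was 0.26, and that of Loxl1 was 0.97 and passed. Without JagKO2 these values were -0.41 and 0.16. Of the 14 fibroblast and pericyte markers, 14 were also highest in JagKO2 within JAG2KO. Within Scramble, 5 of the 14 were highest in replicate 3 (Thy1, Fap, Pi16, Col14a1 and Mfap5), and 7 were lowest there, among them Pdgfra, Pdgfrb and Dcn. Pi16 measured 21.8, 8.70 and 11.6 CPM in JagKO2, JagKO3 and JagKO4, against 4.87, 5.64 and 10.6 CPM in Scramble replicates 1, 2 and 3. The summed fibroblast and pericyte list, in which Dcn, Lum and Dpt are the most abundant, was highest in JagKO2 but lowest in Scramble replicate 3. These markers were singled out after their values were seen, and their relation to Lox and Loxl1 was not tested.

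Scaled by exon length, the totals of the lysyl oxidase family overlapped between the groups, while the shares of Loxl2 and Loxl3 in it did not. The shares of Lox, Loxl1 and Loxl4 overlapped. The summed level was 57.3, 45.6 and 47.3 CPM per kilobase in JagKO2, JagKO3 and JagKO4, against 42.1, 44.7 and 49.0 CPM per kilobase in Scramble replicates 1, 2 and 3. The groups overlapped in this sum. Loxl2 made up 47.4% to 48.5% of it in JAG2KO and 2.08% to 3.48% in Scramble. Loxl3 made up 19.4% to 21.3% in JAG2KO and 57.6% to 67.7% in Scramble. The length-scaled ratio of Loxl2 to Loxl3 was 2.45, 2.26 and 2.28 in the JAG2KO libraries, against 0.0528, 0.0307 and 0.0556 in the Scramble libraries. Loxl4 held 16.8% to 18.8% in JAG2KO and 18.0% to 21.6% in Scramble. These shares are a description of the same contrast.

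**Figure D2:**
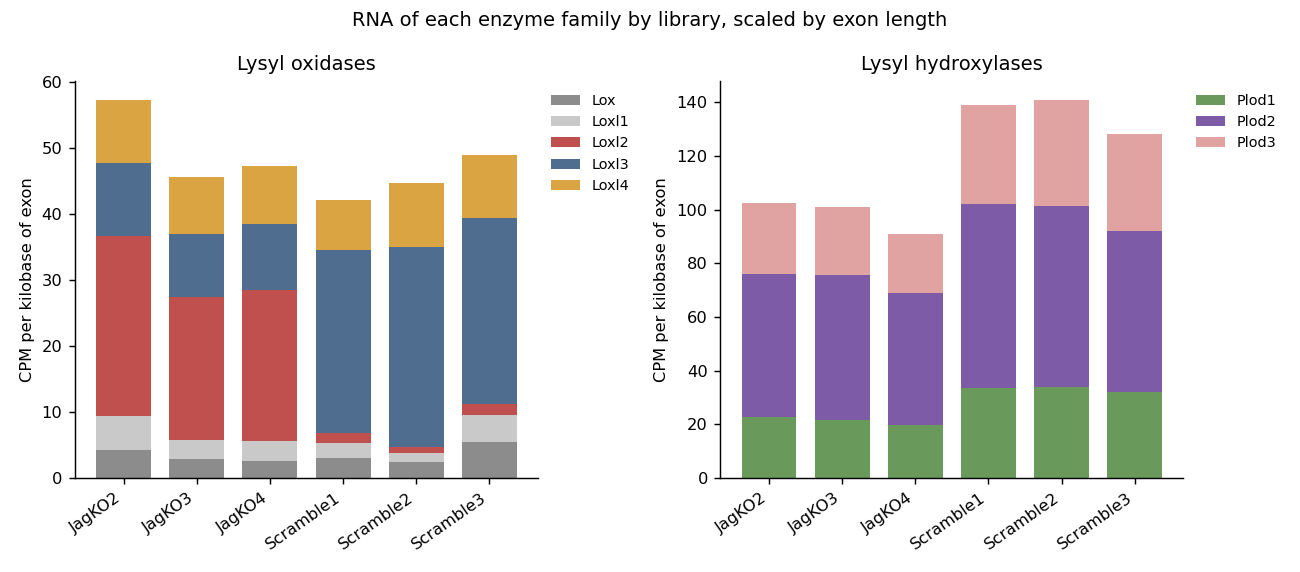
Stacked CPM per kilobase of annotated exon (vertical axes, linear from 0, with different ranges) of the lysyl oxidases (left) and lysyl hydroxylases (right) in each library, JAG2KO libraries first. Loxl2 fills close to 48% of the lysyl oxidase bar in JAG2KO and at most 3.48% in Scramble, and the lysyl hydroxylase bars reach 91.1 to 102 in JAG2KO and 128 to 141 in Scramble.

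Within JAG2KO the order of length-scaled levels ran from Plod2 (52.0 ± 2.79 CPM per kilobase) through Plod3 (24.7 ± 2.08), Loxl2 (23.9 ± 2.86), Plod1 (21.4 ± 1.46), Loxl3 (10.2 ± 0.769), Loxl4 (8.98 ± 0.542) and Loxl1 (3.68 ± 1.32) to Lox (3.22 ± 0.917). The values of Plod3 and Loxl2, of Loxl2 and Plod1, of Loxl3 and Loxl4, and of Loxl1 and Lox overlapped between libraries. Within Scramble it ran from Plod2 (65.4 ± 4.87 CPM per kilobase) through Plod3 (37.6 ± 1.64), Plod1 (33.1 ± 0.899), Loxl3 (28.8 ± 1.35), Loxl4 (8.97 ± 1.18), Lox (3.60 ± 1.64) and Loxl1 (2.63 ± 1.38) to Loxl2 (1.32 ± 0.343). There the overlapping neighbours were Lox with Loxl1 and Loxl1 with Loxl2. Loxl2 had the lowest mean of the 8 in Scramble and held place 3 in JAG2KO.

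All 3 lysyl hydroxylase genes were lower in JAG2KO. Plod1, on the minus strand of chromosome 4, 147909753 to 147936767, measured 154, 146 and 135 CPM in JagKO2, JagKO3 and JagKO4, against 226, 229 and 217 CPM in Scramble replicates 1, 2 and 3. The groups lay wholly apart, with a log2 fold change of -0.63 (SE 0.067). Plod3, on the plus strand of chromosome 5, 136987019 to 136996648, measured 119, 114 and 101 CPM in JAG2KO, against 167, 178 and 164 CPM in Scramble. Its groups were also apart, with a log2 fold change of -0.61 (SE 0.073). Plod3 shares 529 exon bases with the opposite-strand gene Znhit1, which had a log2 fold change of -0.066 (edgeR adjusted p = 0.711). Plod2, the hydroxylase of the telopeptides, differed least. The gene lies on the plus strand of chromosome 9, 92542223 to 92608428, and measured 287, 291 and 263 CPM in JAG2KO, against 370.5, 365 and 322 CPM in Scramble. The groups did not overlap, with JagKO3 and Scramble replicate 3 nearest to each other, and the log2 fold change was -0.33 (SE 0.071). Plod2 shares 346 exon bases with the opposite-strand model Gm38391, which measured 1.26 to 3.84 CPM over the libraries and was not called (edgeR adjusted p = 0.403). In JAG2KO, JagKO4 was the lowest of its group for all 3 Plod genes. The length-scaled sum of the 3 genes was 102, 101 and 91.1 CPM per kilobase in JagKO2, JagKO3 and JagKO4, against 139, 141 and 128 CPM per kilobase in Scramble replicates 1, 2 and 3. Plod2 made up 53.0% ± 0.923 of the sum in JAG2KO and 48.0% ± 1.39 in Scramble (SD, n = 3 each). No JAG2KO share was as low as the highest Scramble share.

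Promoter sequence in GRCm38.p6 was found in the RefSeq table for 3 of the 8 genes, Plod1, Plod3 and Loxl4, and not for Lox, Loxl1, Loxl2, Loxl3 or Plod2. The 250 bases before each start are shown for these 3 genes, 5′ to 3′ on the gene's strand. Plod1 and Plod3 were lower in JAG2KO and Loxl4 was level. Capitals mark the core of the hypoxia response element, ACGTG or GCGTG, read on either strand.
Plod1, chr4:147936777-147937026, minus strand: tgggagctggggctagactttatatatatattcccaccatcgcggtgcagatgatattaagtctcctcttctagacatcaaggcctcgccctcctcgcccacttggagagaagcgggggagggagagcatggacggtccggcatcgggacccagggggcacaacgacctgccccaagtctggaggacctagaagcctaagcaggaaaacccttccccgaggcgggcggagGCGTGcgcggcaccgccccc
Plod3, chr5:136986769-136987018, plus strand: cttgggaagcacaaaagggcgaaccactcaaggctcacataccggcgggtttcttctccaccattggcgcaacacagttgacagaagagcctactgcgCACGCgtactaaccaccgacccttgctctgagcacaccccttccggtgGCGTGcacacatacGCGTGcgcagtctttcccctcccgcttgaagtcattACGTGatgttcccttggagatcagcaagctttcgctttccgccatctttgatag
Loxl4, chr19:42612807-42613056, minus strand: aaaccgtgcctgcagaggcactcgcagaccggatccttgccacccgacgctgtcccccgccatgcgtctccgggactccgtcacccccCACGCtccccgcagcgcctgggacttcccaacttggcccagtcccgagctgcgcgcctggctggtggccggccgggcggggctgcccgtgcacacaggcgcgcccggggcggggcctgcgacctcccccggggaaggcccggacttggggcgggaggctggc
The core had 1 match in Plod1, 20 bases before the start, 4 in Plod3, at 152, 104, 90 and 54 bases, and 1 in Loxl4, at 162 bases. Of 32851 promoter windows of that length in the table, 38.6% held at least 1. The core letters bound by the Notch effector RBPJ, TGGGAA on either strand, had 1 match in each of Plod1, Plod3 and Loxl4 and occurred in 21.6% of windows. The E-box letters CAGGTG, read by Snail, had 0 matches in these 3 windows and occurred in 17.2% of all. Plod1 and Loxl4 had the same number of matches for each of these motifs, and Plod3 had more only for the hypoxia core. Whether any of these matches bears on the RNA levels was not tested.

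Many other genes that modify or fold collagen in the endoplasmic reticulum were lower in JAG2KO as well. Of 16 tested genes for collagen modification and folding, 9 were called lower and 1 higher (median log2 fold change -0.24), beside 12.5% lower and 11.8% higher over all genes. Fkbp10, whose product is known to assist the Plod2 enzyme, measured 33.7, 31.0 and 32.6 CPM in JagKO2, JagKO3 and JagKO4, against 207, 214 and 219 CPM in Scramble replicates 1, 2 and 3. It fell by 2.72 on the log2 scale (SE 0.066, edgeR adjusted p = 1.72e-10). P3h4 and P3h3 encode a pair that is known in mice to form a complex with the Plod1 enzyme, and fell by 2.28 and 0.63 (edgeR adjusted p = 5.33e-08 and 8.29e-05). Both groups lay apart for P3h4, at 5.75 to 6.98 CPM in JAG2KO and 29.5 to 32.5 CPM in Scramble. Among prolyl 4-hydroxylase subunits, which stabilise the collagen helix, P4ha2 and P4ha1 fell by 1.17 and 0.48 (edgeR adjusted p = 5.74e-05 and 0.000869), while P4ha3 rose by 0.59 (edgeR adjusted p = 0.00391). The other 4 called genes, outside those named by rule, were P4hb, Tmem38b, Ppib and P3h2. Fkbp10, Ppib and P3h2 share 193, 825 and 1055 exon bases with the opposite-strand genes Nt5c3b, Snx22 and Gm4524, and reads there cannot be assigned. P3h2 lost its call without any of Scramble replicates 1, 2 and 3, JagKO3 or JagKO4 (adjusted p = 0.0916 to 0.141). Ppib lost it without Scramble replicate 1, Scramble replicate 2 or JagKO4 (adjusted p = 0.0575 to 0.106). The 6 genes not past the threshold had log2 fold changes of -0.19 to 0.39. Among them were the collagen chaperone gene Serpinh1 at 0.0021 and Colgalt1, which encodes the galactosyltransferase of hydroxylysine, at -0.17, both named after their values were seen.

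**Figure D3:**
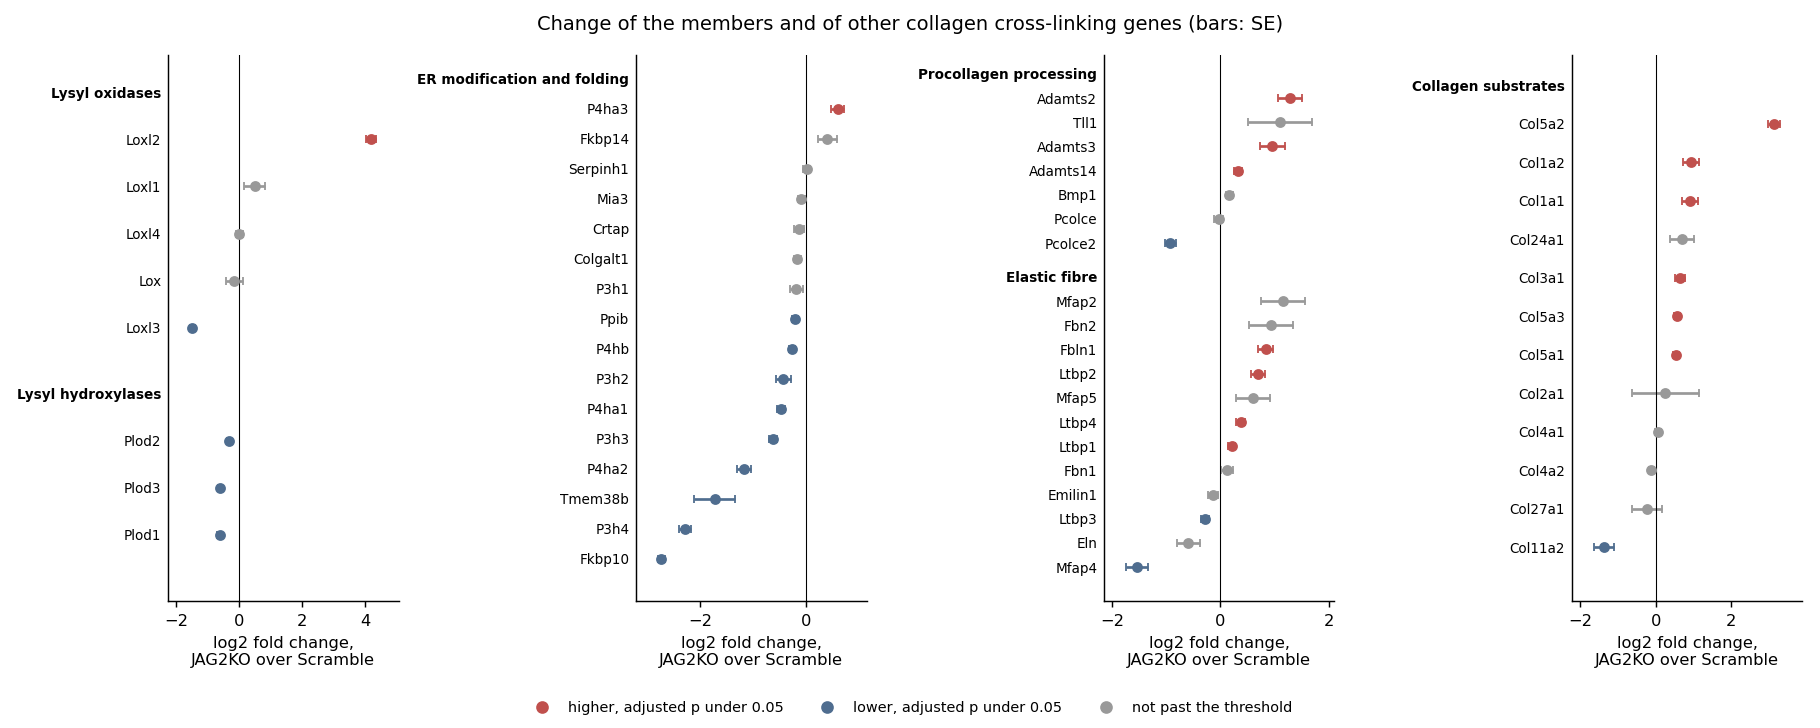
Log2 fold changes, JAG2KO over Scramble, with SE, of the lysyl oxidases and hydroxylases (left panel) and of tested genes that modify, process or receive the cross-links. Horizontal ranges differ between panels, red and blue mark genes past the edgeR threshold, and Tll2, with 1 count in JAG2KO, is left out. Loxl2 at 4.18 and Col5a2 at 3.13 lie far right, and Fkbp10 at -2.72 and P3h4 at -2.28 far left.

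Several collagen substrates of the 8 enzymes were higher in JAG2KO. Of 12 tested fibrillar and basement membrane collagen genes, 6 rose and 1 fell (median 0.56), beside 11.8% higher and 12.5% lower over all tested genes. Col5a2 rose most, to 264, 198 and 191 CPM in JagKO2, JagKO3 and JagKO4, against 27.0, 18.6 and 29.1 CPM in Scramble replicates 1, 2 and 3 (log2 fold change 3.13, SE 0.16, edgeR adjusted p = 9.99e-08). The others that rose were Col5a3, Col5a1, Col3a1 and Col1a2 (log2 fold changes 0.57, 0.54, 0.64 and 0.93) and, past the rule's number, Col1a1 (0.91), while Col11a2 fell by 1.37. The 5 collagen genes not called had log2 fold changes of -0.23 to 0.70. Without JagKO2, which had the highest fibroblast and pericyte sum, the values were 0.57 for Col1a1, 0.59 for Col1a2 and 0.42 for Col3a1. The call of Col1a1 ended without Scramble replicate 1 (adjusted p = 0.0547) and under DESeq2 (adjusted p = 0.0566). Col4a1 and Col4a2, the basement membrane chains known as Loxl2 substrates, had log2 fold changes of 0.060 and -0.12 and were not called, which was seen before they were singled out. Of 12 elastic fibre genes, the substrates and scaffold on which Lox and Loxl1 act, 4 rose and 2 fell (median 0.29), beside the same 11.8% and 12.5%. Fbln1 (0.83), Ltbp2 (0.70), Ltbp4 (0.38) and Ltbp1 (0.21) rose, and Mfap4 and Ltbp3 fell by 1.54 and 0.29. The 6 elastic fibre genes not called had log2 fold changes of -0.59 to 1.15, so the highest value of this list was not called. The call of Ltbp1 ended without Scramble replicate 2, Scramble replicate 3, JagKO3 or JagKO4 (adjusted p = 0.0503 to 0.104). Elastin itself (Eln) measured 4.48 ± 1.11 CPM in JAG2KO and 6.77 ± 0.751 CPM in Scramble (SD, n = 3 each) and was not called.

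Genes that process procollagen, activate Lox or hold it at the fibril were split. Of 8 processing genes, 3 rose and 2 fell (median 0.24), where 11.8% of all tested genes were called higher and 12.5% lower. The N-propeptide protease genes Adamts2, Adamts3 and Adamts14 rose by 1.28, 0.96 and 0.32 on the log2 scale, and the enhancer gene Pcolce2 fell by 0.93. Tll2 had 1 count over JAG2KO and 81 over Scramble, a Scramble to JAG2KO ratio of 75.2 (95% exact binomial interval 13.1 to 3006, counting error only). Bmp1, the protease that frees active Lox from its propeptide, had a log2 fold change of 0.16 and was not called. The 3 processing genes not called, Bmp1 among them, had log2 fold changes of -0.033 to 1.10. Of 14 genes for fibril assembly, copper supply and other cross-links, 3 rose and 3 fell (median 0.12), beside 11.8% higher and 12.5% lower over all tested genes. Tgm2, a transglutaminase that cross-links proteins without lysyl oxidase, and Postn, which helps to activate Lox, rose by 1.15 and 0.95 (edgeR adjusted p = 4.95e-05 and 0.000391). Tgm2 shares 370 and 633 exon bases with the opposite-strand genes Rprd1b and Gm20412. Fbln5, a scaffold of Loxl1, Fn1 and Efemp2, which binds Lox, fell by 1.19, 0.63 and 0.37 (edgeR adjusted p = 0.00124, 0.000563 and 0.00145). Tnxb rose by 0.71 (edgeR adjusted p = 0.049), and its groups overlapped. The call of Tnxb ended under DESeq2 and limma-voom and without Scramble replicate 1, Scramble replicate 2, JagKO2 or JagKO3 (adjusted p = 0.0553 to 0.17). The copper transporter gene Atp7a, which loads lysyl oxidases, had a log2 fold change of -0.22 and was not called.

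Loxl2 was higher while other genes induced by the hypoxia factor HIF were mostly lower. Of 12 such genes outside collagen modification, 8 fell and 0 rose (median -0.66), beside 12.5% lower and 11.8% higher over all tested genes. The 6 with the smallest p were Egln3, Pgk1, Slc2a1, Bnip3, Ero1a and Ankrd37, with log2 fold changes of -0.92, -0.88, -0.76, -0.82, -0.57 and -1.30, and the others that fell were Ldha and Car9. The call of Car9 ended without Scramble replicate 1 (adjusted p = 0.0544). All 3 Plod genes had the same sign as the genes that fell, and Loxl2 the opposite one. Lox had a log2 fold change of -0.16 (SE 0.27), was not called and changed sign without Scramble replicate 3. Whether HIF bears on any of these enzyme genes was not tested. Without JagKO2, 1 of the 12 was called higher. Snai1, the partner of Loxl2 and Loxl3 in repression of Cdh1, had a log2 fold change of 0.029 and Cdh1 one of -0.15 at 0.133 to 1.36 CPM, and neither was called. Of 9 genes of the Snail and epithelial-mesenchymal list, Cdh2, Zeb2 and Zeb1 rose by 1.76, 0.37 and 0.32 and Snai2 and Twist1 fell by 0.53 and 0.46 (median of the list 0.029), in a background of 11.8% higher and 12.5% lower. The call of Snai2 ended without Scramble replicate 1 and that of Twist1 without JagKO4 (adjusted p = 0.0525 and 0.0515).

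The genes that lie next to the 8 on their chromosomes were compared over the 5 tested genes on each side, for 7 of the 8. Beside Loxl2, 2 of 10 neighbours were called higher and 0 lower, and their median log2 fold change was 0.094. On chromosome 14 as a whole 19.6% of 537 tested genes were called higher and 6.33% lower, and 2 of 10 is close to the first of these shares. One of the 2 higher genes, R3hcc1, measured 66.1 to 76.1 CPM in JAG2KO and 43.9 to 48.4 CPM in Scramble (log2 fold change 0.65, edgeR adjusted p = 9.49e-05). The other was the unnamed model Gm21451, with 54, 35 and 61 counts in JagKO2, JagKO3 and JagKO4, against 0, 4 and 9 in Scramble. Among tested genes Gm21451 follows Entpd4 as Loxl2 follows Entpd4b, and Entpd4 and Entpd4b have the same exon length of 8.074 kilobases. Whether Gm21451 is a copy of Loxl2 that takes up its reads was not tested, so it may not be an independent neighbour. The mitochondrial iron carrier gene Slc25a37 and Chmp7, within the same 10, had log2 fold changes of 0.073 and 0.11 and were not called. Beside Loxl3 it was otherwise: 8 of 10 neighbours were called lower and 0 higher, with a median of -0.48. M1ap, Dqx1, Dok1, Pole4, Hk2, Pcgf1, Htra2 and Aup1 fell by 0.39 to 2.12 on the log2 scale, against 1.49 for Loxl3. On chromosome 6 as a whole, 12.1% of 813 tested genes were called higher and 23.1% lower. Whether the value of Loxl3 belongs with those of its neighbours was not tested. Beside Plod2, 0 of 10 rose and 1190002N15Rik, Chst2 and Plscr2 fell by 4.58, 3.36 and 1.09 on the log2 scale. Beside Plod3, 0 of 10 rose and Ap1s1 fell by 0.35. The medians of the neighbours of Plod2 and Plod3 were 0.069 and -0.077. Beside Loxl1, Islr, Cd276 and Stoml1 rose by 1.55, 0.51 and 0.44, and Insyn1 and Stra6 fell by 2.17 and 0.72. Beside Lox, Prdm6 rose by 2.98 and Prr16 fell by 1.89. Beside Loxl4, Pyroxd2 rose by 0.34 and Got1 fell by 0.25. On the chromosomes of these 5 genes, 6.58% to 12.8% of tested genes were called higher and 7.32% to 23.3% lower.

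**Figure D4:**
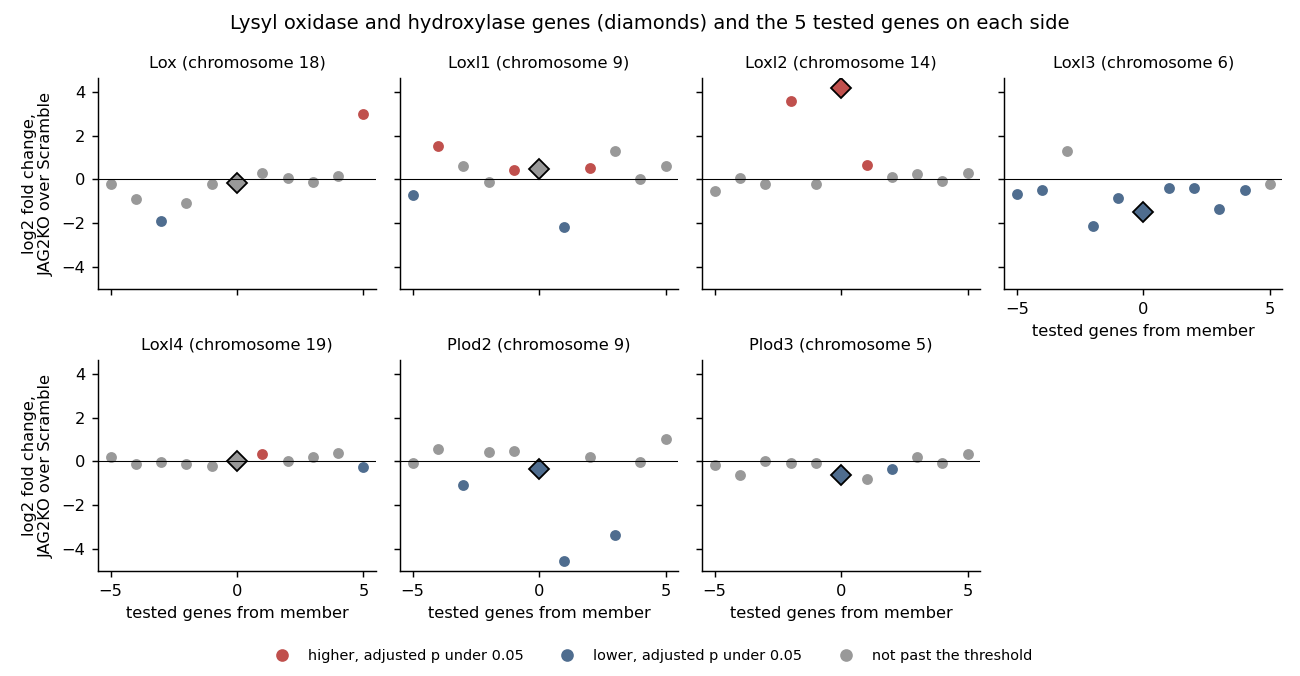
Log2 fold change (vertical axis), JAG2KO over Scramble, of 7 of the 8 genes (diamond at 0, Plod1 not shown) and of the 5 tested genes before and after it along the chromosome (points, in order of start position, not to distance). Neighbours of Loxl3 lie mostly below 0, with a median of -0.48, and those of Loxl2 scatter around 0 with 1 point at 3.57, the unnamed model Gm21451.

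Genes with the most similar profile to each called enzyme gene were sought among 10749 named genes with a mean of at least 2 CPM. The measure was the Euclidean distance between mean-centred log2 CPM over the 6 libraries, and with both groups in it the difference between the groups dominates this measure. Rftn1, App and Kank1 were closest to Loxl2, at distances of 0.867, 0.926 and 1.19. App measured 168 to 205 CPM in JAG2KO and 14.2 to 19.4 CPM in Scramble, the nearest of the 3 to Loxl2 in level. Creg1, Crot and Gpr162 were closest to Loxl3, at 0.114, 0.158 and 0.256. Plod1 and Plod3 were on each other's lists of 3, at a distance of 0.0711. The other genes nearest to Plod1 were Tmed10 and Arhgef25, and those nearest to Plod3 were Grina and Arhgef25, at distances of 0.0628 to 0.0663. For Plod2 they were Rtkn, Fndc3a and Ttc12, at 0.0454 to 0.0663.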

How the data were processed

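The table that the authors deposited holds raw read counts by gene for 6 libraries. Per the submitters' processing notes, the tools were STAR 2.7.7a and HTSeq 0.11.2. The sources used here do not give the genome build, annotation, strand setting or read filters, so genes with paralogs or exon overlaps carry an uncertainty from counting. The JAG2KO columns are numbered 2 to 4 and the sample titles 1 to 3, and each library is called by its column name and given no replicate number. No library was treated as a repeat: chi-square divided by its degrees of freedom was 12.2 to 31.0 for the pairs within groups.

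Symbols and coordinates come from GENCODE M21 (GRCm38), which matched 55154 of 55334 IDs without regard to version. CPM per kilobase divides by the union of annotated exons. The test was edgeR 4.0.16 under R 4.3.3: filterByExpr (minimum count 10, minimum total 15), TMM, quasi-likelihood F test, two-sided, Benjamini-Hochberg over all tested genes, called under 0.05. The SE is the log2 fold change over the root of its F. The script was tested on simulated data (5 draws, 200 changed genes). It called 60%, 77.9% and 94.5% of changes of 1.5-fold, 2-fold and 4-fold, and 8.27% of its calls were unchanged genes. Alternatives were RLE factors, library totals, no filter, CPM 1 in 3 libraries, DESeq2 1.42.0, limma-voom 3.58.1 and each library left out. The 8 genes, the lists and the naming rule (in each list up to 6 called genes by smallest p, 3 closest profiles, called neighbours) were chosen with earlier results of these data known, and listed genes named though not called were picked for their known role after their values were seen. The called neighbours of Plod1 are not reported here.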

Additional observations from a re-analysis of the deposited data

How the results depend on the processing

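Loxl2, Loxl3, Plod1, Plod2 and Plod3 kept their direction and their side of the threshold under all 12 alternatives. The log2 fold change of Loxl2 ranged from 3.99 to 4.31, of Loxl3 from -1.55 to -1.44, of Plod1 from -0.67 to -0.58, of Plod3 from -0.66 to -0.54 and of Plod2 from -0.39 to -0.28. With each library left out, the value of Lox ranged from -0.41 to 0.26, positive without Scramble replicate 3, and that of Loxl4 from -0.093 to 0.070, negative without Scramble replicate 1 and without JagKO2 (-0.046). None of these was called. Loxl1 passed with no filter on low counts and without Scramble replicate 3, so that 2 of the 8 genes were called higher there, against 1 with any other library left out. With no filter the log2 fold change of Loxl1 was nearly the same, 0.50 against 0.48 in the main fit. Its SE was smaller, 0.16 against 0.32, and that of Lox was 0.13 against 0.27. The pass there thus came with a smaller estimated error and not with a larger change. With no filter, 7 fibril assembly genes were called higher. With each library left out in turn, 2 to 5 of them were. With the filter of CPM 1 in 3 libraries, 1 processing gene was called lower, since Tll2 was then not tested. Leaving out libraries gave 2 to 4 elastic fibre genes lower, 0 to 1 HIF-induced genes higher and 1 to 2 genes of the Snail list lower. Over all genes, 1356 to 2301 were called higher and 1349 to 2105 lower. Where not stated, the cause of a change was not tested. No paired analysis was possible because the JAG2KO columns do not carry the titles' replicate numbers. Precision is limited by 3 libraries a group, most for Lox and Loxl1, whose libraries spread widest.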
